A study of Homo sapiens with 15 samples.

Results

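The data set out what RNA T cell exosomes carried beside the RNA of the endothelial cells that received them. The members are the 6 arrays of exosome RNA and the 6 arrays of exosome-treated endothelial cells, 12 of the 15 arrays of the series, chosen by their titles and not by any measured value. Exosome RNA came from Jurkat cells, a human T cell leukaemia line titled JK (3 arrays), and from JinB8, the mutant of that line without CD47 titled JINB8 (3 arrays). The recipients were human umbilical vein endothelial cells (HUVEC) kept for 6 h in EGM2 medium with JK exosomes (3 arrays) or with JINB8 exosomes (3 arrays). Another 3 arrays held HUVEC that had no exosomes, used here as a reference for levels.

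Each group limits what the comparison can carry. The labels describe HUVEC as a line and do not say whether replicates came from separate cultures, so p-values measure the spread between these arrays, which may be technical. The vesicles came from concentrated medium of T cells grown with human serum, by precipitation (ExoQuick), and the same mass of total RNA went into each labelling. No array held RNA of the Jurkat or JinB8 cells themselves. A gene can therefore be high in exosome RNA because T cells express it or because vesicles take it up. In this design the cell of origin and vesicle sorting cannot be told apart. Any RNA brought by the human serum of the medium cannot be separated from them. In both kinds of bulk RNA, fewer vesicles or cells of a type and less RNA in each cannot be told apart either.

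Exosomes are small vesicles that form as inward buds of late endosomes and leave the cell when those endosomes fuse with the plasma membrane. The budding uses the ESCRT machinery, tetraspanins such as CD63, CD81 and CD9, and the adaptor syntenin, and the vesicles carry fragments of messenger RNA together with small and other non-coding RNAs. In vessels such vesicles bring RNA of blood cells to the endothelium. CD47, a receptor of thrombospondin-1 and a ligand of SIRP proteins, is carried on T cell vesicles, and the study set a CD47-bearing line beside a line that lacks it.

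Of the microRNA genes named below, MIR192, MIR181B1, MIR21 and MIR221 stand out in one direction or the other. A mature sequence of each, from RefSeq on GRCh38.p14, is shown so that the seed (bases 2 to 8, in capitals) can be read beside each difference. MIR153-2 is named without a sequence, as that reference held none for it. The array probes the precursor gene and not the mature strand.
hsa-miR-192-5p: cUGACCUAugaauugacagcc
hsa-miR-181b-5p: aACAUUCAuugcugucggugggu
hsa-miR-21-5p: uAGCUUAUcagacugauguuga
hsa-miR-221-3p: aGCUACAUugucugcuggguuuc
Their precursor genes lie on chromosome 11 (the strand shown at 64891203 to 64891223, minus strand), chromosome 1 (198858925 to 198858947, minus strand), chromosome 17 (59841273 to 59841294, plus strand) and chromosome X (45746180 to 45746202, minus strand). Of the 173 microRNA genes measured, 164 matched a mature sequence in that table.

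The arrays of exosome RNA were compressed relative to those of cells, and this sets the frame for every value that follows. Gene values are the deposited log2 signals of 1 probeset per gene, so a difference of 1 is a doubling of signal. The interquartile range of all probesets on an array, with or without a listed gene, was 1.96 ± 0.03 (SD, n = 6) in exosome RNA. In treated HUVEC it was 3.36 ± 0.04 (SD, n = 6). The 2 ranges did not overlap (1.91 to 1.99 against 3.32 to 3.43, exact permutation test, two-sided, p = 0.00216, the smallest that 924 relabellings allow). Pearson r of array pairs was taken across all probesets, which are not independent. It was 0.980 to 0.989 among exosome arrays, 0.990 to 0.995 among treated HUVEC and 0.496 to 0.554 between the kinds. Over the 18417 genes, the treated HUVEC arrays numbered 3 did not sit with their labels. In deviations from the mean of the 6 treated HUVEC arrays, JK replicates 1 and 2 correlated at 0.38 and JINB8 replicates 1 and 2 at 0.29, while JK replicate 3 correlated at -0.36 and -0.32 with its own group and at 0.08 and -0.03 with JINB8 replicates 1 and 2. JINB8 replicate 3 correlated at -0.31 and -0.10 with its own group and at 0.01 and -0.03 with JK replicates 1 and 2. Results are therefore also given without both arrays, a choice made after seeing the data. All groups kept their labels.

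Almost every gene differed between exosome RNA and treated HUVEC RNA. With limma and Benjamini-Hochberg adjustment over 18417 genes at 0.05, 8342 genes (45.3%) were higher in exosome RNA, 9145 (49.7%) were lower and 930 did not pass. The losses were the larger changes: 4183 genes (22.7%) were higher by at least 2-fold and 7119 (38.7%) lower by at least 2-fold, and past 8-fold the counts were 37 higher and 2761 lower. In 7609 genes (41.3%) all 6 exosome arrays lay above all 6 HUVEC arrays, and in 8671 (47.1%) all lay below. The median difference over all genes was -0.13 on the log2 scale. Other scalings moved the balance of calls: quantile normalization gave 9498 higher and 7570 lower with a median of 0.23, and centring each array on its median gave 9542 higher and 8142 lower with a median of 0.29.

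The difference followed the level of a gene in resting endothelium. When genes were split into 10 groups by their value in untreated HUVEC, the median difference was 0.74, 1.12, 1.09 and 0.80 in the dimmest 4 groups, 0.36 and -0.27 in the next, and then -1.20, -1.96, -2.70 and -3.85 in the brightest. In the brightest group 11 genes were higher in exosome RNA and 1826 lower. Genes that HUVEC express strongly were with few exceptions lower in exosome RNA than in treated HUVEC RNA on this scale. For several families the median less that of genes of the same level group is given as well.

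The largest positive differences were led by copies of pseudogenes and by gene families of sensory and epithelial tissue. The largest difference was that of ROCK1P1, a truncated copy of the kinase gene ROCK1. Its values were 8.66, 8.49 and 8.26 in JK exosomes and 8.46, 8.44 and 8.34 in JINB8 exosomes, against 3.55, 3.63 and 3.76 in HUVEC with JK exosomes and 4.36, 3.96 and 3.85 in HUVEC with JINB8 exosomes. The 6 exosome arrays lay far above the others, by 4.59 ± 0.09 (SE; limma, adjusted p = 9.28e-18). REXO1L1P, a member of a repeated exonuclease-like family, followed at 4.51 ± 0.09 (SE), with exosome values from 10.51 to 10.92 and HUVEC values from 5.84 to 6.61. Both belong to families of near-identical copies, so their signal cannot be placed on 1 locus. Then came MIR153-2 at 3.97, the olfactory receptors OR4K15 (3.89), OR2J3 (3.82), OR10K1 (3.71), OR8G1 (3.67), OR8B8 (3.49) and OR4K2 (3.47), the mucin MUC12 (3.86), the hair protein KRTAP10-11 (3.48), the defensin DEFB108B (3.46) and PELO (3.44), a ribosome rescue factor. TPTEP1, a pseudogene at 3.50, had another probeset called the opposite way. LEF1, described below, was the one T cell regulator among the top 15.

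Olfactory receptors, the odour receptors of nasal sensory neurons, moved as a block. Of 360 measured, 358 were higher in exosome RNA and 0 lower (against 45.3% and 49.7% of all genes), with a median difference of 1.87, a 5th percentile of 0.54, a 95th of 3.07 and a range of 0.10 to 3.89. OR4K15 had 7.75, 7.59 and 7.54 in JK exosomes, 7.66, 7.72 and 7.66 in JINB8 exosomes, 3.39, 3.21 and 3.85 in HUVEC with JK exosomes and 3.99, 4.26 and 3.90 in HUVEC with JINB8 exosomes. The exosome values lay within a narrow band and shared no range with the cells. At the same level in untreated HUVEC the family exceeded other genes: in level group 2 its median was 2.13 against 1.07, and in group 3 it was 2.14 against 1.07. Other families with expression confined elsewhere in the body did likewise. Keratin-associated protein genes, which build hair, were higher in 67 of 68 (median 1.69), late cornified envelope and small proline-rich genes of the skin barrier in 27 of 27 (median 1.66), and beta-defensins in 20 of 24 (median 1.22), each with 0 lower. Taste receptor genes were split, with 14 higher and 11 lower of 27 (median 0.23). Taste receptor, beta-defensin and cornified envelope families were added after the values were seen. How much of the signal of such families comes from the transcripts they name was not tested, and the olfactory median of 1.87 is printed below as a marker of what genes outside T cell and endothelial biology did on these arrays. Over all genes, 708 (3.84%) exceeded that median, and 35 exceeded the olfactory 95th percentile, of which 18 were olfactory receptors and 9 other protein-coding genes.

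**Figure D1:**
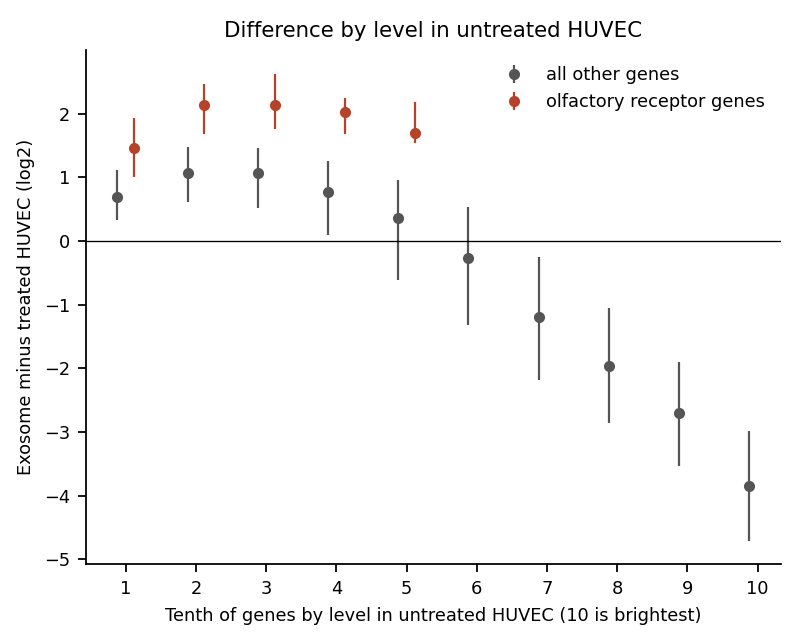
Median difference between exosome RNA and treated HUVEC RNA (log2, vertical axis) in 10 groups of genes by level in untreated HUVEC, for olfactory receptor genes and all other genes, with lines from the lower to the upper quartile; groups with under 7 olfactory receptor genes are not drawn for that family. The medians of other genes fall from 1.07 in groups 2 and 3 to -3.85 in the brightest, and olfactory receptor genes lie above them in each group drawn.

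The CD3 chains of the T cell receptor and LEF1 led the T cell markers in exosome RNA. Of 26 measured T cell markers 25 were higher in exosome RNA and 1 was lower (background 45.3% and 49.7%), with a median of 1.32 that stayed between 1.18 and 1.84 under the other scalings and was 0.72 above genes of like level in untreated HUVEC. Less genes of like level, the median was also 0.93 for olfactory receptor, 1.24 for keratin-associated protein and 1.30 for cornified envelope and small proline-rich genes. It was 0.37 for beta-defensin and -0.51 for taste receptor genes. Of the T cell markers, 9 exceeded the olfactory median and 2 its 95th percentile. LEF1, a transcription factor of T cell development and Wnt signalling, had 6.51, 6.65 and 6.55 in JK exosomes and 7.19, 7.13 and 7.21 in JINB8 exosomes. In HUVEC with JK exosomes it had 3.19, 2.99 and 3.11, and with JINB8 exosomes 3.50, 3.29 and 3.10. All exosome arrays were higher, by 3.67 ± 0.07 (SE; limma, adjusted p = 5.54e-18). CD3D, a chain of the CD3 complex that carries the T cell receptor signal, had 6.70, 6.60 and 6.28 in JK exosomes and 6.72, 6.89 and 6.81 in JINB8 exosomes, against 3.36 to 3.86 in the 6 treated HUVEC arrays. Its difference was 3.08 ± 0.10 (SE; limma, adjusted p = 6.44e-15). The partner chains CD3E (3.04 ± 0.06, SE) and CD3G (2.87 ± 0.06, SE) rose with it, and none of the 3 chains overlapped between exosomes and cells. LCK, the kinase that phosphorylates CD3 chains, was at 6.93 ± 0.08 (SD, n = 6) in exosome RNA and 4.45 ± 0.17 (SD, n = 6) in cells, a difference of 2.48; it was picked out after its value was seen. The lower member was GATA3, a T helper regulator that endothelial cells also express, at -1.34, a value that changed sign under quantile normalization and loess.

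T cell receptor signalling genes outside the marker list were split much like all genes. Of 25 measured, 12 were higher and 13 lower (against 45.3% and 49.7% of all genes), with a median of -0.95 on the deposited values and of -0.01 after quantile normalization. NFKB1, a subunit of NF-kB, fell by 3.70 and FYN, a kinase related to LCK, fell by 3.35 on the log2 scale. Both are expressed in HUVEC as well, with means of 8.01 and 8.74 in the treated cells. Among 26 blood and leukaemia transcription factors 16 were higher and 9 lower (median 0.66). MYB, a regulator of immature T cells, was higher by 2.61 ± 0.06 (SE), with exosome values of 5.68 to 5.98 and cell values of 3.14 to 3.38. TCF12, an E protein, fell by 3.58 and NOTCH1 fell by 3.10; the difference of TCF12 reversed under loess (0.18).

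Among markers of all leukocytes, 15 of 20 were higher and 4 lower (median 1.03; background 45.3% and 49.7%), and 3 exceeded the olfactory median. LCP1, the leukocyte form of plastin that bundles actin, was at 6.46, 6.75 and 6.44 in JK exosomes, 7.21, 7.24 and 7.53 in JINB8 exosomes and 3.69 to 3.97 in treated HUVEC, so both exosome groups lay above the cells and JINB8 above JK. Its difference was 3.08 ± 0.07 (SE; limma, adjusted p = 2.05e-16). DOCK2, an activator of Rac in lymphocytes, was higher by 2.04 ± 0.06 (SE). PTPRC, which encodes CD45, was higher by 1.07 ± 0.05 (SE), with exosome values of 3.81 to 4.08 against 2.73 to 3.00. Its exosome values lay around the lower quartile of all probesets on their arrays (4.03 to 4.05). Its cell values lay below that of theirs (3.59 to 3.66). Median differences in the dimmest 4 level groups ran from 0.74 to 1.12. ARHGDIB (-4.39) and LAPTM5 (-2.47), both of which HUVEC transcribe, were lower, and LAPTM5 reversed under loess (0.32).

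Most markers of other blood cell types and of mural cells were also higher, beside 45.3% higher and 49.7% lower among all genes. The T cell medium held human serum, and whether it brought such RNA was not tested. Monocyte and neutrophil markers were higher in 13 and lower in 1 of 15 (median 1.05), platelet markers higher in 10 and lower in 2 of 12 (median 1.20), erythroid markers higher in 9 of 9 (median 0.93) and B cell markers higher in 12 of 12 (median 0.75). Mural cell and fibroblast markers were higher in 14 and lower in 3 of 18 (median 0.81). Less the median of genes of like level in untreated HUVEC, these medians were 0.56 for monocyte, 0.22 for platelet, 0.13 for erythroid, 0.04 for B cell and -0.04 for mural markers. For monocyte markers the mean level of the list ran from 5.33 to 5.37 on exosome arrays and from 4.29 to 4.36 on treated HUVEC. For erythroid markers it ran from 5.21 to 5.28 against 4.07 to 4.23. Leading members were ITGAM (1.86), the integrin of myeloid cells, S100A9 (1.79), HBD (2.22) and HBB (1.48) of haemoglobin, GP1BA (2.01) of the platelet receptor for von Willebrand factor, FCRLA (1.82) and IGLL1 (1.70) of B cells. Members that HUVEC express went the other way, among them ITGB3 (-5.04), RGS5 (-6.66) and ACTA2 (-1.59). MHC class II genes, which present antigen on professional presenting cells, were higher in 9 of 9 (median 1.00), led by HLA-DQB1 (2.72) and HLA-DQA1 (2.22). The class II genes HLA-DPA1 and HLA-DPB1 each had another probeset called the opposite way. The part of these shifts in the T cell result was not tested. The CD3 chains and LEF1 exceeded the olfactory median of 1.87. So did 1 erythroid marker (HBD), 2 platelet markers (GP1BA among them) and 2 MHC class II genes (HLA-DQB1 and HLA-DQA1). In all, 9 of 26 T cell markers exceeded it, beside 3.84% of all genes. Of unrelated families, 26 of 68 keratin-associated protein, 10 of 27 cornified envelope and small proline-rich, 8 of 27 taste receptor and 4 of 24 beta-defensin genes did.

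**Figure D2:**
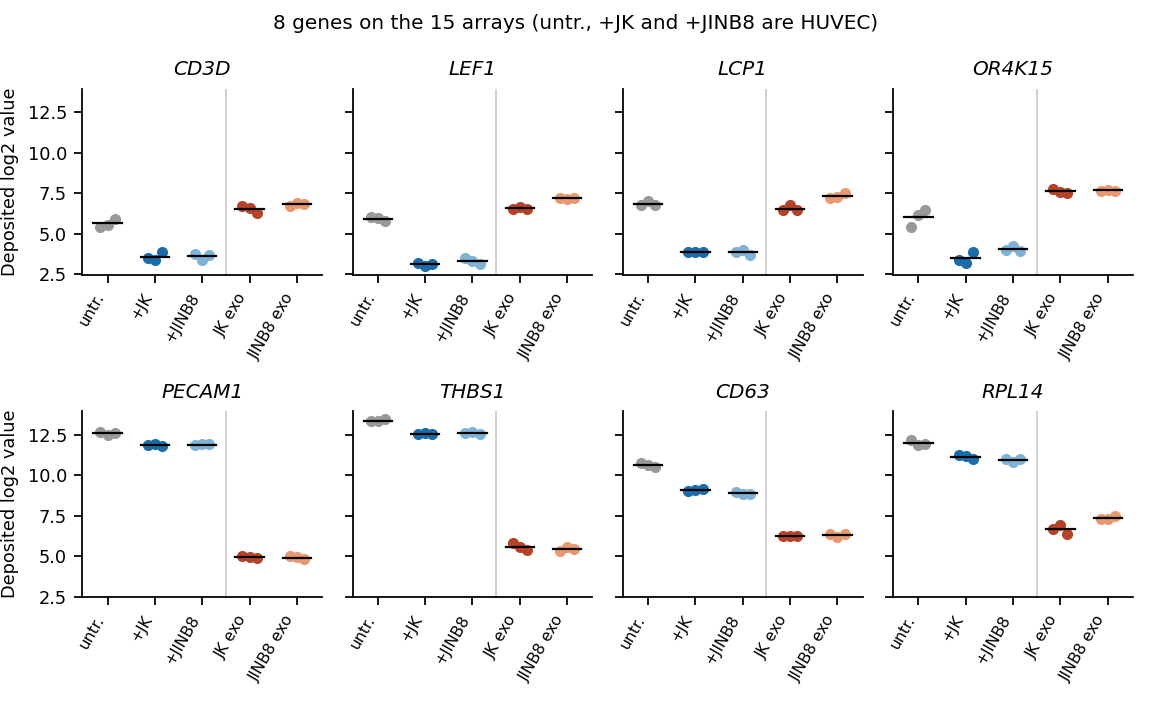
Deposited log2 values of CD3D, LEF1, LCP1, OR4K15, PECAM1, THBS1, CD63 and RPL14 on all 15 arrays; each dot is 1 array, black lines are group means of 3 arrays, and the grey line divides HUVEC from exosome RNA. The upper 4 genes are higher and the lower 4 lower on all 6 exosome arrays than on the 6 treated HUVEC arrays; untreated HUVEC lies on a higher scale and is compared only after normalization.

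Endothelial markers had the lowest median difference of the gene lists. Of 29 endothelial markers, 27 were lower and 1 higher in exosome RNA (against 49.7% and 45.3% of all genes). Their median was -4.33 (-2.65 after quantile normalization and -1.56 after loess, where 20 were lower and 7 higher). PECAM1, the junction protein CD31, had 4.98, 4.97 and 4.90 in JK exosomes, 5.0, 4.92 and 4.80 in JINB8 exosomes, 11.88, 11.93 and 11.78 in HUVEC with JK exosomes and 11.87, 11.90 and 11.90 in HUVEC with JINB8 exosomes. No exosome array came near a cell array, and the difference was -6.95 ± 0.05 (SE; limma, adjusted p = 2.33e-21). MMRN1, an adhesive protein of endothelial granules, fell by 7.01, CDH5, the VE-cadherin of endothelial junctions, fell by 6.25, and ESM1, a secreted proteoglycan, fell by 5.99 on the log2 scale. The 1 higher marker was CD34, at 0.48. These values check the labels of the cells: the treated HUVEC arrays carried endothelial transcripts that the exosome arrays did not carry at a like level. The endothelial transcription factors followed, with 17 lower and 5 higher of 24 (median -1.47); after quantile normalization 9 were higher and 13 lower (median -0.22), and after loess 10 were higher and 12 lower (median -0.20). Among them were EPAS1 (-6.66), ERG (-5.34) and FLI1 (-3.96).

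PLOD2, the gene with the lowest difference, is a lysyl hydroxylase that prepares collagen for crosslinking. It had 3.04, 3.12 and 3.12 in JK exosomes and 3.09, 3.25 and 3.19 in JINB8 exosomes, against 10.93 to 11.70 in treated HUVEC. It fell by 8.18 ± 0.10 on the log2 scale (SE; limma, adjusted p = 5.2e-20). FN1 (fibronectin, -7.60), TFPI (the inhibitor of tissue factor, -7.38), HSPA5 (the chaperone BiP of the endoplasmic reticulum, -7.31), GALNT1 (-7.25), SLC38A2 (-7.22), APP (-7.20), PTPRB (the phosphatase VE-PTP, -7.18), CALCRL (-7.15), ANKRD1 (-7.10), LMAN1 (-7.10), THBS1 (-7.09), ANXA1 (-7.08), TM9SF2 (-7.07) and PRCP (-7.07) made up the lowest 15. All 15 lay in the brightest of the 10 level groups, and their differences less the median of that group ran from -4.33 to -3.22. Because these genes were picked by their difference, which a bright HUVEC signal favours, neither observation is a separate result. Among all genes 49.7% were lower and 45.3% higher. Collagens, laminins and basement membrane genes were lower in 24 and higher in 3 of 28 (median -2.36), and after loess 8 were higher and 18 lower. FN1, LAMB1 (-6.06) and SPARC (-6.02) were among the lowest. Integrin and focal adhesion genes were lower in 23 and higher in 7 of 30 (median -3.16), led by CAV1 of caveolae (-7.06) and ITGA5 (-6.52). Coagulation and fibrinolysis genes were lower in 15 and higher in 5 of 20 (median -2.81). Notch, angiopoietin and VEGF genes were lower in 20 and higher in 5 of 25 (median -2.31), with the VEGF receptors FLT1 at -5.75 and KDR at -4.74. After quantile normalization 9 of them were higher and 14 lower (median -0.91), and after loess 8 were higher and 12 lower (median -0.21).

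Inflammatory endothelial genes were split, with 11 higher and 9 lower of 24, beside 45.3% and 49.7% of all genes. Their median was 0.22 on the deposited values and -0.07 after loess. CCL2, a monocyte chemokine, fell by 5.69 on the log2 scale. Interferon-stimulated genes were lower in 28 and higher in 4 of 32 (median -2.75), with IFITM3 at -5.75. MHC class I genes were lower in 7 and higher in 1 of 8 (median -2.42), B2M at -4.70 and the chaperone CALR at -5.17; after quantile normalization 2 were higher and 5 lower, and after loess 4 were higher and 4 lower.

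The genes that build exosomes were mostly lower in exosome RNA than in treated HUVEC RNA. Of 46 genes of exosome biogenesis and tetraspanins, 39 were lower and 7 higher (median -2.38), against 49.7% and 45.3% of all genes. After loess 26 were lower and 14 higher (median -0.30). CD63 had 6.25, 6.26 and 6.22 in JK exosomes, 6.38, 6.19 and 6.36 in JINB8 exosomes, 9.01, 9.11 and 9.15 in HUVEC with JK exosomes and 8.96, 8.85 and 8.82 in HUVEC with JINB8 exosomes. The groups did not overlap, and the difference of -2.71 ± 0.05 (SE; limma, adjusted p = 1.9e-17) was 1.14 above the median of the brightest level group and reversed under loess (0.52). CD81 (-4.44) and CD9 (-5.01) were lower, as were SDCBP, which encodes syntenin (-6.65), and the endosomal GTPase RAB7A (-6.21). The members with the largest positive values, picked out after they were seen, were CD53 (1.94) and CD37 (1.68), tetraspanins of leukocytes, and CHMP4C (1.91), an ESCRT-III subunit. Annexins and cytoskeletal vesicle proteins were lower in 29 of 29 on the deposited values (median -3.92), with ANXA1, ANXA5 (-6.71) and MSN (-5.57) in front; under loess 14 were higher and 12 lower. RNA-binding proteins linked to RNA loading were lower in 24 of 25 (median -2.98; 17 lower and 7 higher after loess), HNRNPK at -4.51 and QKI at -4.65. The exception was LIN28B (0.82), which blocks let-7 maturation.

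Most housekeeping genes were lower in exosome RNA than in treated HUVEC RNA on the deposited scale, and the balance depended on scaling. Cytoplasmic ribosomal protein genes were lower in 57 and higher in 2 of 64 (median -2.40); after quantile normalization 27 were higher and 23 lower (median 0.01), and after loess 52 were higher and 11 lower (median 1.29). Set against genes of the same level in untreated HUVEC, the family lay 0.80 above. RPL14 was at 6.67, 6.93 and 6.36 in JK exosomes, 7.31, 7.27 and 7.48 in JINB8 exosomes and 10.78 to 11.22 in treated HUVEC, and fell by 4.01 on the log2 scale, which reversed under loess (0.44). RPL11 fell by 3.99. The 2 higher members were RPL10L (1.75), a testis copy, and RPL39L (0.35), which reversed under quantile normalization. Translation factors were lower in 35 and higher in 1 of 38 (median -3.05; 18 lower, 19 higher and a median of 0.12 after loess), EIF4G2 at -5.68; the exception was EEF1B2 (1.14). Glycolysis genes were lower in 19 of 19 (median -3.02; 4 lower, 12 higher and a median of 0.35 after loess), with TPI1 at -4.39 (0.35 after loess). Nuclear oxidative phosphorylation genes were lower in 65 and higher in 2 of 69 (median -1.95; 37 and 25 after loess), NDUFA2 at -4.84, and mitochondrial ribosomal protein genes lower in 66 and higher in 3 of 74 (median -1.58; 43 and 23 after loess), MRPS15 at -3.99. Spliceosome genes were lower in 37 and higher in 0 of 39 (median -2.80; 23 and 12 after loess), SF3B1 at -5.28. Proteasome subunits were lower in 30 and higher in 3 of 33 (median -3.37; 22 and 8 after loess), PSMA2 at -5.74. Heat shock proteins and chaperonins were lower in 24 of 24 (median -3.66; 14 lower and 7 higher after loess), with HSPA5 and HSP90B1 (-6.45) leading. G2/M genes were near the background of 45.3% and 49.7%, with 12 higher and 15 lower of 30 (median -0.19) and 9 higher and 18 lower after loess (median -0.41), with CDC25C at 1.25 and ECT2 at -2.28, and so were DNA replication genes, with 15 higher and 17 lower of 38 (median -0.05; 20 and 14 after quantile normalization), RRM1 at -1.77.

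**Figure D3:**
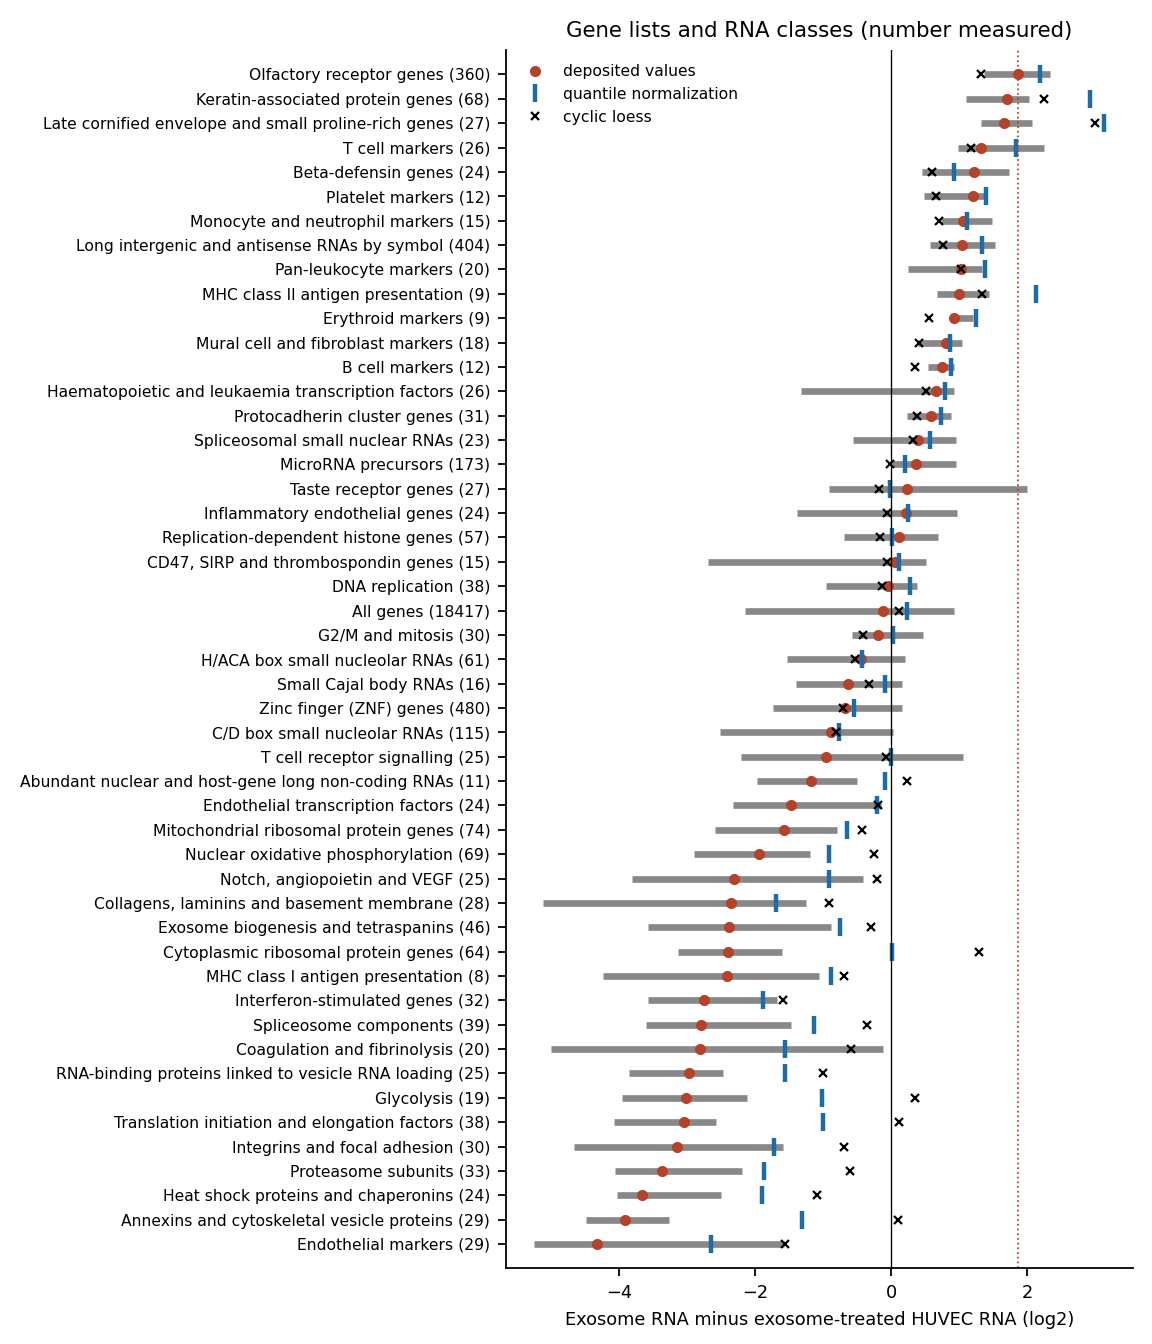
Median log2 difference between exosome RNA and treated HUVEC RNA for each gene list and RNA class with at least 8 measured genes, with the number measured; red dots are deposited values, grey bars their quartiles, blue ticks and black crosses the medians after quantile normalization and cyclic loess, and the dotted line the olfactory receptor median of 1.87. Endothelial markers lie lowest at -4.33; annexins, translation factors, glycolysis, ribosomal proteins and the list of abundant long RNAs are negative on deposited values and positive after loess.

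RNA classes differed from one another. Long intergenic and antisense RNAs were mostly higher, 355 against 31 lower of 404 (background 45.3% and 49.7%). Their median was 1.05, and 51 lay above the olfactory median. TMEM51-AS1 was highest of those named at 3.39, and LINC00472 was at -3.82. A list of abundant nuclear and host-gene long RNAs was lower in 11 of 11 on the deposited values (median -1.18, -0.09 after quantile normalization and 0.24 after loess, where 6 were higher and 5 lower). MALAT1, which stays in nuclear speckles, had 4.92, 5.27 and 4.97 in JK exosomes, 5.67, 5.36 and 6.17 in JINB8 exosomes and 11.89 to 12.06 in treated HUVEC. It fell by 6.60 ± 0.11 on the log2 scale (SE; limma, adjusted p = 1.08e-18), and TUG1 fell by 5.21.

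Small nucleolar RNAs, guides for the chemical modification of ribosomal RNA, were mostly lower. Of the C/D box class 77 were lower and 21 higher of 115 (median -0.88), against 49.7% and 45.3% of all genes. Of the H/ACA class 34 were lower and 17 higher of 61 (median -0.45). Less the median of genes of like level in untreated HUVEC, the class medians were -1.14 and -0.67, and they stayed negative under quantile normalization, centring and loess. SNORD45A was at 4.26 to 4.81 on exosome arrays and 9.27 to 9.91 on treated HUVEC arrays, a difference of -5.07. The differences of SNORA22 (-5.11), SNORA23 (-4.61), SNORD114-3 (-4.12) and the Cajal body RNA SCARNA9 (-3.64) were of the same kind. Small Cajal body RNAs were lower in 11 and higher in 5 of 16 (median -0.63). Many of these RNAs lie in introns of host genes, so host transcripts can add to their probes. Spliceosomal small nuclear RNAs were higher in 14 and lower in 7 of 23 (median 0.39), yet RNU4-1 was at -4.18 and RNU4ATAC at -4.09; they have many copies and are uncertain as single genes. Of the 4 Y and vault RNAs, small polymerase III transcripts often found in vesicles, 3 were higher and 1 lower on the deposited values, 1 was higher and 1 lower after quantile normalization, and 1 was higher and 2 lower after loess. VTRNA1-3 was higher by 1.50 ± 0.11 (SE). RNY1 was at 5.52, 4.63 and 4.18 in JK exosomes and 5.05, 5.01 and 3.26 in JINB8 exosomes against 3.51 to 4.08 in treated HUVEC; its groups overlapped and its difference of 0.71 ± 0.27 (SE; limma, adjusted p = 0.0205) did not pass after quantile normalization, under loess, with trend and robust fitting, or without any one of 4 arrays.

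MicroRNA precursor genes were higher in 111, lower in 28 and not called in 34 of 173 on the deposited values (median 0.36). Of all genes 45.3% were higher and 49.7% lower. After quantile normalization 91 were higher and 47 lower (median 0.20), after loess 74 were higher and 73 lower (median -0.01), and less genes of like level the median was -0.31. MIR153-2 was highest, at 6.72 to 7.55 on exosome arrays and 2.99 to 3.25 on treated HUVEC, a difference of 3.97 ± 0.08 (SE). MIR192, whose 5p seed is shown above, had 6.16, 6.25 and 5.97 in JK exosomes, 6.33, 6.40 and 6.18 in JINB8 exosomes and 3.64 to 3.87 in treated HUVEC. Its exosome arrays were all higher, by 2.43 ± 0.07 (SE; limma, adjusted p = 1.11e-15). The 1 other measured gene with that 5p seed did not pass, at -0.05 ± 0.09 (SE; limma, adjusted p = 0.633). The lowest was MIR181B1 (-3.11), at 4.81 to 5.29 against 7.54 to 8.78. The seed of miR-181b-5p is shared by 4 other measured genes, which went the other way with differences of 0.26 to 1.32, MIR181B2 at 1.32 and MIR181C at 1.15 among them. MIR21, abundant in endothelium, fell by 2.79 ± 0.09 on the log2 scale (SE), at 5.45 to 6.03 against 8.18 to 8.72. MIR221 and MIR222, neighbours that share the seed of miR-221-3p and restrain endothelial migration, were lower together, at -1.90 and -1.99. A precursor of this kind can share its signal with the host transcript, and mature strands were not measured.

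Replication-dependent histone genes, whose messages lack a poly(A) tail, had 27 higher and 21 lower of 57 (median 0.12), beside 45.3% and 49.7% of all genes, and after loess 23 were higher and 25 lower. H2BC12 was at -3.02 and H4C5 at -2.65, the latter reversed under loess (0.41). Zinc finger genes were lower in 315 and higher in 119 of 480 (median -0.68, or -0.80 less the median of genes of like level), with ZNF521 at -5.42. Protocadherin cluster genes, of neural adhesion, were higher in 25 and lower in 4 of 31 (median 0.58). Mitochondrially encoded genes had 0 named probesets. Copies within the histone, zinc finger and protocadherin families share sequence, so single members are uncertain.

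Genes of the CD47 pathway were split as all genes were, with 7 higher and 7 lower of 15 (median 0.05; background 45.3% and 49.7%). CD47 had 4.72, 4.69 and 4.72 in JK exosomes, 4.58, 4.67 and 4.94 in JINB8 exosomes, 8.92, 9.04 and 8.69 in HUVEC with JK exosomes and 8.62, 8.64 and 8.78 in HUVEC with JINB8 exosomes. Both exosome groups were lower than the cells, with a difference of -4.07 ± 0.07 (SE; limma, adjusted p = 4.06e-18), and the ranges of JK and JINB8 exosomes overlapped, so CD47 signal does not tell the lines apart here and gives no check of their labels. THBS1, the thrombospondin ligand of CD47, was at 5.31 to 5.82 in exosome RNA and 12.51 to 12.65 in treated HUVEC. SIRPA, the myeloid partner of CD47, was at -1.14 and reversed under quantile normalization (0.38) and loess (0.82). UBQLN1, a ubiquilin that binds the tail of CD47, was at -3.84. SIRPG, the SIRP protein of T cells, was the highest member at 2.44 ± 0.07 (SE), singled out after its value was seen.

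The picture was nearly the same for the 2 lines. JK exosomes against HUVEC with JK exosomes gave 17084 called genes (92.8%) and JINB8 exosomes against HUVEC with JINB8 exosomes 17046 (92.6%). Of 16600 genes called in both, 16594 had the same sign, 7820 higher and 8774 lower, and the 2 sets of differences, which share no array, correlated at 0.994 across genes. CD3D was higher by 2.96 within JK and 3.21 within JINB8, LEF1 by 3.47 and 3.88, and CD3E by 2.81 and 3.28. PECAM1 was at -6.91 and -6.98, and FN1 at -7.50 and -7.71.

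A small set of genes differed between the lines. The interaction passed in 144 genes (0.782%), 125 with a larger value in JINB8 and 19 with a larger value in JK, and in 138 of them both within-line differences had the same sign. Without replicate 3 of both treated HUVEC groups the interaction passed in 1037 genes, and all 144 were among them with the same sign. Those arrays were left out because they departed from their groups, and the others are the same in both fits. The larger count and the overlap are therefore no independent check of the 144. The count moved with single arrays: it was 71, 57 and 338 without HUVEC with JK exosomes replicate 1, 2 or 3, 60 without HUVEC with JINB8 exosomes replicate 2, 94 and 65 without JK exosome replicate 1 or 3, and 69 without JINB8 exosome replicate 3. After cyclic loess it was 45. SH3KBP1, an adaptor of receptor endocytosis, had 8.35, 9.0 and 8.80 in JK exosomes, 10.31, 10.92 and 10.80 in JINB8 exosomes and 10.30 to 10.71 in treated HUVEC. JK exosomes lay below all other arrays, and the interaction was 1.87 ± 0.23 (SE; limma, adjusted p = 0.00139). FAF2, a protein of the endoplasmic reticulum degradation pathway, was at 9.94 to 10.11 in JK exosomes, 11.44 to 11.90 in JINB8 exosomes and 12.50 to 12.81 in treated HUVEC, an interaction of 1.67 ± 0.17 (SE; limma, adjusted p = 0.000615). Histone genes were also among the largest interactions, with H3C11 highest of those named (2.07), H1-4 at 1.86 and H4C3 at 1.43. For H1-4 the cell arrays moved as well: HUVEC with JK exosomes had 10.42, 10.19 and 9.47, and HUVEC with JINB8 exosomes 9.05, 9.31 and 9.84, so the third array of each group sat nearer to the other group. LCP1 (0.81), RPL14 (0.89) and H4C5 (0.90) were also higher in the JINB8 contrast.

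Genes with a larger value in the JK contrast were led by LIMD1-AS1 (-1.79), OR2J3 (-1.27) and MIR221 (-1.21), with CPSF7 (-0.74) and RNF214 (-0.73), 2 genes of RNA processing and ubiquitin transfer. MIR221 had 4.18, 4.06 and 4.32 in JK exosomes and 3.88, 3.95 and 4.14 in JINB8 exosomes, and 5.47, 5.16 and 5.84 against 6.42, 6.54 and 6.54 in the matching HUVEC. The exosome groups overlapped and the cell groups did not, so the interaction lay mostly in the cells.

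**Figure D4:**
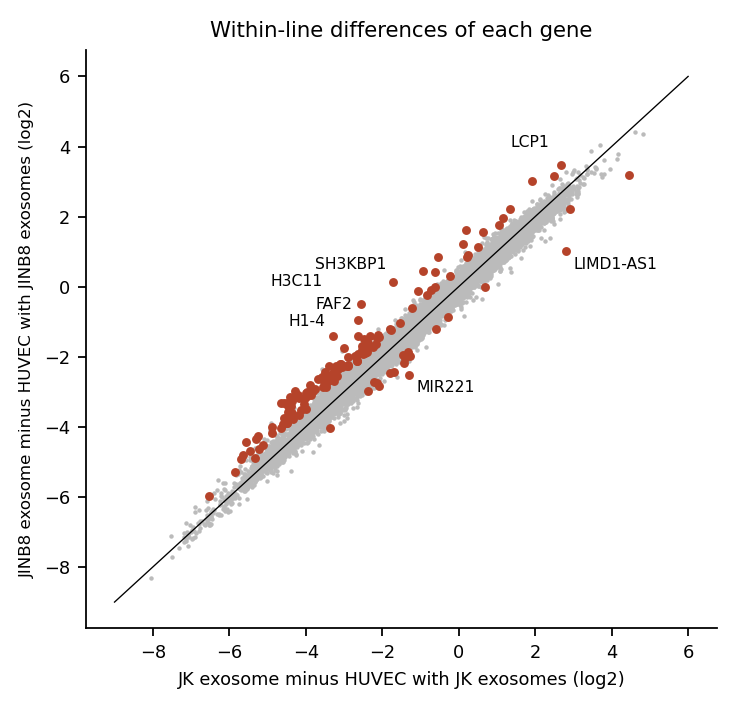
Log2 difference of each gene (18394 drawn, those tied to sex left out) between JK exosomes and HUVEC with JK exosomes (horizontal axis) and between JINB8 exosomes and HUVEC with JINB8 exosomes (vertical axis); red dots are the 144 genes whose 2 differences differ (limma, adjusted p under 0.05) and the line marks equality. Points follow the line (r = 0.994 across genes), and most red dots lie above it.

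Against resting cells the same groups stood out. Exosome RNA was set against untreated HUVEC after quantile normalization over the 9 arrays, since the untreated arrays lie on a higher scale. In that fit 9375 genes (50.9%) were higher and 7445 (40.4%) lower, with a median of 0.23. LEF1 was higher by 3.40, CD3D by 3.33 and OR4K15 by 4.23, and the medians were 1.55 for T cell markers, 1.89 for olfactory receptors and -2.29 for endothelial markers. CD63 fell by 0.61 and PECAM1 fell by 4.15 on the log2 scale, and ribosomal protein genes had a median of 0.21. The exosome arrays are the same in both comparisons, so the second is not independent of the first.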

How the data were processed

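RNA was measured on whole-transcript gene arrays labelled with biotin. The deposited log2 values were made with Affymetrix Expression Console, per the submitters' processing notes. The software version, the background correction and the scaling, of all arrays at once or in sets, were not given in the sources used here. No detection calls were used, so signal was not set against background, and the number of arrays limits the precision. Of 33297 probesets, 19460 had 1 gene symbol, 1754 several and 12083 were unlisted; 19429 matched the RefSeq gene table by Entrez identifier, with 0 symbols altered. A gene was represented by its brightest probeset on average over the 12 compared arrays, untreated HUVEC left out. This gave 18417 genes, 769 with several probesets. For 101 of 750 called genes with several, another probeset was called the opposite way.

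Groups came from the labels. The 12 arrays were fitted as 4 groups with limma 3.58.1 in R 4.3.3 (lmFit and eBayes, 8 residual degrees of freedom), with contrasts for both lines together, for each line and for their difference, and Benjamini-Hochberg adjustment over all genes at 0.05. Untreated HUVEC was compared after quantile normalization over 9 arrays. Scripts were tested on simulated data. Alternatives were other scalings, filters, weights, a replicate block and leaving out arrays. The members, lists and rules were chosen with earlier results of these data known. Named genes were the 15 highest and 15 lowest among genes called in all 3 contrasts without overlap, up to 4 of largest size per list, up to 5 per direction for the difference between lines, and 8 fixed genes; names without a described gene, genes tied to sex and probesets of several genes were passed over. The pattern for microRNA genes was changed after the data were seen, to leave out host genes.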

Additional observations from a re-analysis of the deposited data

Results flagged for a closer look

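The contrast of exosome RNA with treated HUVEC RNA differed between the JINB8 and the JK line in 144 genes by the interaction term, and the difference was tested with limma over 18417 genes. The interaction, as JINB8 contrast minus JK contrast on the log2 scale, was 2.07 for H3C11, 1.87 for SH3KBP1, 1.86 for H1-4, 1.67 for FAF2, 1.43 for H4C3, 0.90 for H4C5, 0.89 for RPL14 and 0.81 for LCP1. It was -1.79 for LIMD1-AS1, -1.27 for OR2J3, -1.21 for MIR221, -0.74 for CPSF7 and -0.73 for RNF214. Without replicate 3 of both treated HUVEC groups these became 2.88 for H3C11, 1.86 for SH3KBP1, 2.36 for H1-4, 1.60 for FAF2, 1.88 for H4C3, -2.14 for LIMD1-AS1 and -1.36 for MIR221.

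The 12083 probesets with no listed gene take no part in the comparisons above. In a fit of all rows of the table, 6743 of them were higher and 3182 lower in exosome RNA, with a median of 0.32. The mean exosome value exceeded 12 in 106 of these unnamed probesets and in 0 of the named genes. The 106 were picked by their exosome level, which in itself favours exosome values above those of cells. Of them, 102 were higher than treated HUVEC with no overlap, beside 41.3% of named genes with all exosome values above. Differences ran from -0.59 to 6.62 over all 106. What these probesets measure was not given in the annotation used here.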

How the results depend on the processing

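For the 139 genes named, 3143 values under the alternatives kept their direction and side of the threshold, 20 changed sign and 7 no longer passed. Leaving out the 40% of genes with the lowest mean gave fewer calls where fewer genes were tested: 10579 for exosome RNA against treated HUVEC, 10374 within JK, 10383 within JINB8 and 10196 against untreated HUVEC. For the difference between lines the same filter raised the count to 219; the cause was not tested. All rows of the table gave 30013, 28791, 28642, 269 and 28271. Asking also for a 2-fold change gave 11302, 11336, 11345, 33 and 10178. The difference between lines was the unstable count: 45 under loess, 356 with array weights, 70 with the replicate block, and 1037 without replicate 3 of both treated HUVEC groups, an alternative chosen after seeing the data; the cause was not tested. Leaving out 1 array gave 57 (without HUVEC with JK exosomes replicate 2) to 338 (without HUVEC with JK exosomes replicate 3). Replicate numbers did not pair the samples: correlations of same-number deviations ran from -0.45 to 0.07, and with the block 17461 genes were called, 17452 of them also called without it. As deposited, with no normalization, exosome RNA against untreated HUVEC gave 407 higher and 17117 lower.

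The difference between exosome RNA and treated HUVEC RNA changed sign under scaling for 14 of the 139 genes. After quantile normalization it was 0.38 for SIRPA, 0.77 for H3C11, 2.02 for SH3KBP1, 0.44 for H1-4, 0.067 for GATA3 and -0.036 for RPL39L. After cyclic loess it was 0.32 for LAPTM5, 0.52 for CD63, 0.44 for RPL14, 0.35 for TPI1, 0.82 for SIRPA, -0.00205 for RNY1, 0.41 for H4C5, 0.18 for TCF12, 1.77 for H3C11, 4.43 for SH3KBP1, 1.72 for H1-4, 4.26 for FAF2, 0.51 for GATA3 and -0.26 for RPL39L. None of the 139 changed sign when 1 array was left out.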
